A study of Homo sapiens with 4 samples.

Results

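IL7R, the alpha chain of the interleukin-7 receptor, was examined together with its ligands IL7 and TSLP, its partner chains IL2RG and CRLF2, the kinases JAK1 and JAK3 and the transcription factors STAT5A and STAT5B. These 9 genes were taken by gene symbol from an array table of 21448 features, of which 17709 carried 1 symbol and stood for 17687 distinct genes. All 9 genes had a named feature. Where a gene had several features, the one with the highest mean over the 4 arrays was used. The set was chosen by the known log2 difference of IL7R between the miR204 and control arrays, so every difference of the 9 genes between these groups is a description and is not tested.

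The cells were HeyA8-MDR, a human ovarian carcinoma line made resistant to several drugs. Per the labels, all cultures grew in 15% serum with 300 ng/ml paclitaxel, so the drug was shared by both groups. The 2 miR204 arrays carry that name in their titles and were taken as cells given the miR-204-5p inhibitor, an antisense oligonucleotide against this microRNA. The 2 control arrays carry no such name and were taken as cells given a control inhibitor, as in the design text, although the note on treatment is worded alike for all 4 arrays and names only the miR-204-5p inhibitor. Both groups are 1 line. No label gives the replicates as separate cultures, and the spread behind the p-values may therefore be technical. In RNA from a whole culture, a change in the number of cells that make a transcript cannot be told apart from a change in its amount per cell. Each value is a log2 expression value from Affymetrix Clariom S arrays, with array medians of 5.59 and 5.61 in the miR204 group and 5.65 and 5.68 in the control group. The 2 arrays per group limit the precision, and levels of different features are not compared with each other.

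IL7R is best known from developing and resting lymphocytes, which need interleukin-7 to survive. The receptor has no kinase of its own. Interleukin-7 brings IL7R together with the common gamma chain IL2RG, and thymic stromal lymphopoietin, the product of TSLP, brings it together with CRLF2. JAK1 sits on IL7R and JAK3 on the gamma chain, while the TSLP receptor works with JAK1 and JAK2, and the activated kinases phosphorylate STAT5A and STAT5B, which enter the nucleus and switch on genes of survival and growth.

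The inhibitor used here is directed at a microRNA of 22 bases. Its sequence is shown with the sequence of the mature microRNA that shares its seed, with the seed, bases 2 to 8, in capitals. Both are RefSeq sequences of GRCh38.p14, miR-204-5p at chr9:70810031-70810052 on the minus strand and miR-211-5p at chr15:31065095-31065116 on the minus strand.
hsa-miR-204-5p: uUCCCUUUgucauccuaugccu
hsa-miR-211-5p: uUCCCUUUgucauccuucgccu
These were the 2 mature microRNAs with this seed in the RefSeq table used, and they differ at 2 positions outside the seed. Neither the level of miR-204-5p nor seed matches in the transcripts of the 9 genes were analysed here.

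IL7R was the member with the highest difference. Its log2 values were 7.59 and 7.48 on the miR204 arrays, against 5.66 and 5.85 on the control arrays. Both miR204 arrays lay far above both controls. Means were 7.535 ± 0.0778 in the miR204 group and 5.755 ± 0.134 in the control group (SD, n = 2 each). The log2 difference was 1.78 (SE 0.151, 95% interval 1.42 to 2.14), a fold of 3.43 with an interval of 2.68 to 4.40. Over the 4 ways of setting 1 miR204 array against 1 control array, the log2 difference ran from 1.63 to 1.93. The gap between the miR204 replicates was 0.11 for IL7R, and 27.5% of all features had a smaller one. Between the control replicates it was 0.19, and 65.1% of all features had a smaller one. IL7R stood at rank 7 of 17687 genes by the log2 difference.

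**Figure D1:**
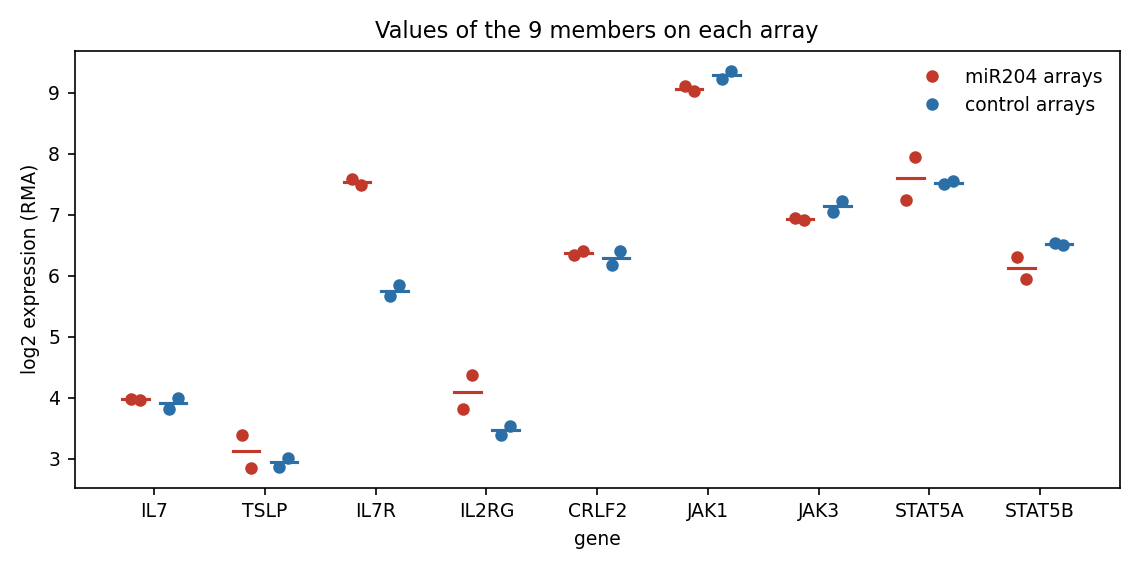
Log2 expression of the 9 members (vertical axis) for each gene (horizontal axis), with the 2 miR204 arrays as red points left of the 2 control arrays in blue and a bar at each group mean. IL7R, with 7.59 and 7.48 in the miR204 group against 5.66 and 5.85 in the control group, has by far the widest separation of the groups.

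Among the 9 members, 1 (IL7R) passed an adjusted p of 0.05 over all features in limma as higher in the miR204 group, and 0 passed as lower. Over the whole array 0.0513% of features passed as higher and 0% as lower. Nothing is read from this count, since IL7R was picked for that call. In fits without control replicate 1, control replicate 2, miR204 replicate 1 or miR204 replicate 2, and after quantile normalization, IL7R was not past the threshold. At an unadjusted p under 0.05, 2 members (IL7R and IL2RG) were higher and 0 lower, against 5.11% of all features higher and 12.8% lower. The median log2 difference was 0.07 over the 9 members and -0.07 over all features.

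The letters upstream of IL7R are shown because it had the widest separation of the groups among the members. The stretch runs from 250 bases before to 50 bases after the RefSeq start of IL7R, on the plus strand of GRCh38.p14 at chr5:35856641-35856940. A match to TGTTTA, the core of the motif bound by forkhead factors such as FOXO1, is in capitals at bases 189 to 194.
IL7R promoter: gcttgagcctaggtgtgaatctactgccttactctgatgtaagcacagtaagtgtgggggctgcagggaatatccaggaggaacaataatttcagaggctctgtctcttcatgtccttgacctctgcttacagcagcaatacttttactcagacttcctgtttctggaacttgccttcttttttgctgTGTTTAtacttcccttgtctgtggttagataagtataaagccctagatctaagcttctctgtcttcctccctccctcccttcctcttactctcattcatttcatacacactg
Read on both strands, TGTTTA occurred in 12.3% of the 35116 RefSeq promoters of this length. The other motifs searched on both strands were the ETS motif CCGGAA (17.2% of promoters), the STAT motif TTCNNNGAA (7.66%) and the NF-kB consensus (11.3%). None of these had a match in this window. Other forms of the motifs, including the shorter ETS core GGAA, were not searched. A match or its absence is a description of these letters only. Promoters of 7 of the 9 members were searched, without IL7 and CRLF2. Of those of members other than IL7R, TGTTTA was also found in the one of IL2RG and in 1 of 3 listed for TSLP.

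The ligands had low values in both groups. IL7 encodes interleukin-7, which stromal and epithelial cells secrete for lymphocytes. Its log2 values were 3.98 and 3.97 on the miR204 arrays and 3.82 and 4.0 on the control arrays, so the groups overlapped. The log2 difference of IL7 was 0.065 (SE 0.147, 95% interval -0.285 to 0.415). TSLP, an epithelial cytokine of barrier tissues, had 3.39 and 2.85 on the miR204 arrays and 2.87 and 3.02 on the control arrays. One miR204 array lay above both controls and the other below both. The TSLP difference was 0.175 on the log2 scale (SE 0.206, 95% interval -0.315 to 0.665), and it was -0.095 without miR204 replicate 1. The sign of the IL7 difference also turned without control replicate 1 (-0.025). Both ligands lay among the dimmest 25% of features (mean level up to 3.965). No detection calls were analysed, and at such levels a transcript may not have been detected at all.

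Of the partner chains, IL2RG had the second highest difference among the members. IL2RG encodes the common gamma chain, shared by the receptors for interleukins 2, 4, 7, 9, 15 and 21. Its log2 values were 3.82 and 4.37 on the miR204 arrays and 3.39 and 3.54 on the control arrays. The groups did not overlap, but the miR204 replicates were 0.55 apart, and 88.1% of features had a smaller gap. The log2 difference of IL2RG was 0.63 (SE 0.208, 95% interval 0.136 to 1.12), a fold of 1.55. It was 0.905 without miR204 replicate 1 and 0.355 without miR204 replicate 2. IL2RG also lay among the dimmest 25% of features.

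CRLF2, the chain that joins IL7R for the TSLP signal, had 2 features. The gene lies in the region shared by the X and Y chromosomes, and the identifiers of the features name 1 of these chromosomes each. The Y feature was the brighter one by a small margin, with a mean level of 6.33 against 6.30 for the X feature, and represents CRLF2 here. Its log2 values were 6.34 and 6.40 on the miR204 arrays and 6.17 and 6.41 on the control arrays. The groups overlapped, with a log2 difference of 0.08 (SE 0.154, 95% interval -0.286 to 0.446). Without control replicate 1 it was -0.04. On the X feature the values were 6.37 and 6.51 on the miR204 arrays and 6.26 and 6.06 on the control arrays. There the miR204 arrays lay above the controls, with a log2 difference of 0.28 (SE 0.154, 95% interval -0.0854 to 0.645). In the deposited values the features thus gave different pictures of overlap, with intervals that both included 0. After quantile normalization the miR204 arrays lay above the controls on both features. The log2 difference was then 0.19 on the Y feature (95% interval -0.15 to 0.53) and 0.38 on the X feature (0.018 to 0.744). The near-identical targets of the 2 features may not be resolved by the probes.

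The kinases JAK1 and JAK3 had lower means in the miR204 group in the deposited values. JAK1, which binds IL7R and many other cytokine receptors, had 9.11 and 9.02 on the miR204 arrays and 9.23 and 9.36 on the control arrays. The groups did not overlap, and the log2 difference was -0.23 (SE 0.145, 95% interval -0.575 to 0.115). JAK3, the kinase of the gamma chain, had 6.95 and 6.91 on the miR204 arrays and 7.05 and 7.23 on the control arrays. Here too the miR204 arrays lay below the controls, with a log2 difference of -0.21 (SE 0.147, 95% interval -0.561 to 0.141). After the deposited values were quantile-normalized again, the groups overlapped for both kinases. The differences then were -0.02 for JAK1 and -0.05 for JAK3.

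STAT5A and STAT5B, the transcription factors of the pathway, are close relatives that lie next to each other on chromosome 17. STAT5A had log2 values of 7.24 and 7.95 on the miR204 arrays and 7.50 and 7.55 on the control arrays. Its miR204 replicates lay on either side of the controls, 0.71 apart, a gap wider than that of 94.5% of features. The log2 difference of STAT5A was 0.07 (SE 0.238, 95% interval -0.496 to 0.636), with 0.425 without miR204 replicate 1 and -0.285 without miR204 replicate 2. STAT5B had 6.31 and 5.95 on the miR204 arrays and 6.54 and 6.50 on the control arrays. Both miR204 arrays lay below the controls, with a log2 difference of -0.39 (SE 0.17, 95% interval -0.794 to 0.0143) and a fold of 0.763. The difference was -0.57 without miR204 replicate 1 and -0.21 without miR204 replicate 2, and -0.29 after quantile normalization. The array on which STAT5A was highest, miR204 replicate 2, was the one on which STAT5B was lowest.

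**Figure D2:**
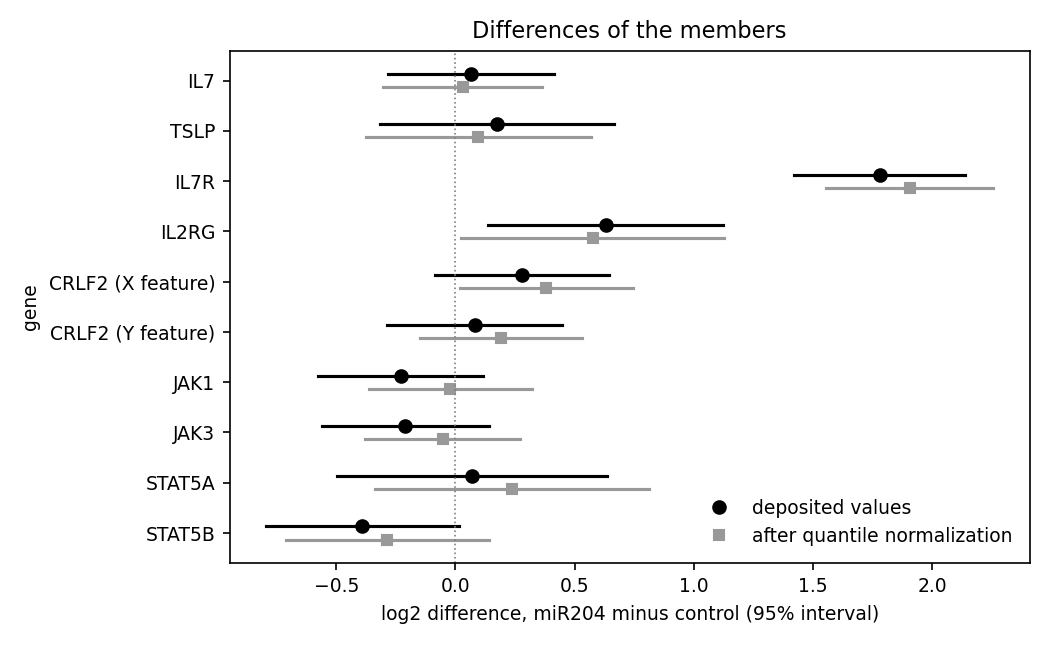
Log2 difference, miR204 minus control, with its 95% interval (horizontal axis) for each member and both CRLF2 features (vertical axis), from the deposited values (black circles) and after a further quantile normalization (grey squares). The IL7R interval of 1.42 to 2.14 lies apart from those of all other members, and the JAK1 and JAK3 differences sit near 0 after quantile normalization.

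Groups did not overlap for 2 members with higher values in the miR204 group (IL7R and IL2RG) and for 3 with lower values (JAK1, JAK3 and STAT5B), and they overlapped for 4. Over all features the groups did not overlap for 50.3%, with 16.5% above the controls and 33.8% below. After quantile normalization 3 members lay above the controls (IL7R, IL2RG and CRLF2) and 1 below (STAT5B), against 22.7% of features above and 23.9% below. Nothing is read from these counts either.

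The genes whose pattern over the 4 arrays was most like that of IL7R were CREBRF, SLC7A11, TXNIP, CXCL8 and HSPA1A. Likeness was the Euclidean distance over the 4 arrays after the control mean of each gene was subtracted, over 17687 genes. CREBRF, which encodes a regulator of the transcription factor CREB3, was nearest at 0.296 log2 units, with 7.10 and 7.28 on the miR204 arrays and 5.48 and 5.64 on the control arrays. SLC7A11, the cystine transporter, followed at 0.424 with 7.71 and 7.43 on the miR204 arrays and 6.02 and 6.13 on the control arrays. TXNIP, the thioredoxin-binding arrestin, lay at 0.434 with 8.0 and 8.5 on the miR204 arrays and 6.38 and 6.52 on the control arrays. Between the nearest arrays of the groups, these 3 genes differed by 1.30 log2 units (SLC7A11) to 1.48 log2 units (TXNIP). The distance was 0.444 for CXCL8, the chemokine interleukin-8, and 0.479 for HSPA1A, a stress-induced chaperone of the HSP70 family that has an almost identical second gene. With 4 arrays, this likeness mostly reflects the size of the difference between the groups.

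**Figure D3:**
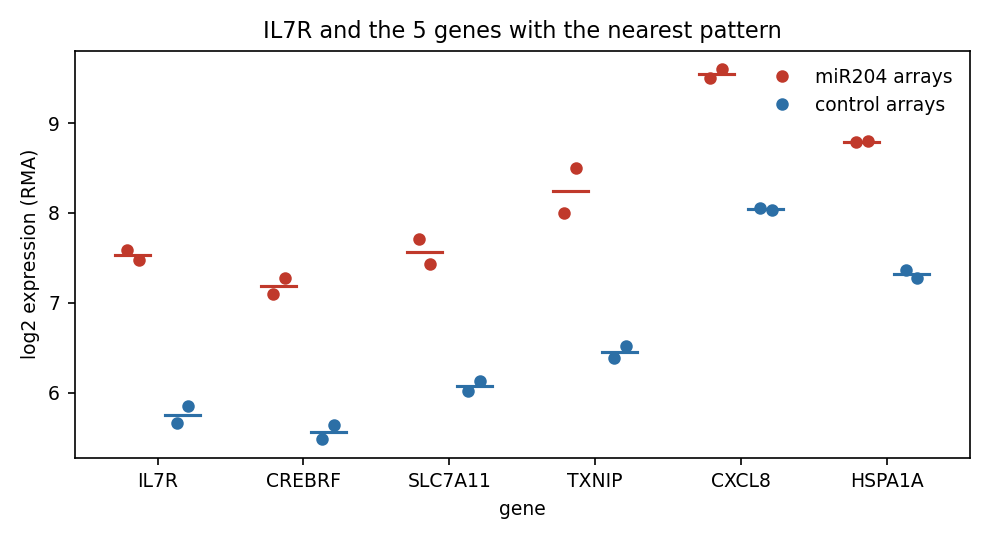
Log2 expression (vertical axis) of IL7R and the 5 genes nearest to it in pattern (horizontal axis), with the miR204 arrays in red left of the control arrays in blue and bars at the group means. In each of the 6 genes both miR204 arrays lie above both controls, as in 16.5% of all features. For the 5 genes this follows from their choice as nearest to IL7R on these same values.

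Genes that flank IL7R on chromosome 5 had smaller differences, some of them below 0. Among the 5 measured protein-coding genes on each side, 0 passed the adjusted threshold in limma in either direction, and at an unadjusted p under 0.05, 0 were higher and 3 lower, against 5.11% of all features higher and 12.8% lower. SPEF2, a sperm flagellar gene and the neighbour on one side, had 4.98 and 5.47 on the miR204 arrays and 4.93 and 4.74 on the control arrays (log2 difference 0.39, SE 0.199, limma adjusted p = 0.35). CAPSL, which encodes a calcium-binding protein and is the neighbour on the other side, had 2.78 and 2.77 on the miR204 arrays and 2.62 and 2.83 on the control arrays (log2 difference 0.05, SE 0.15, limma adjusted p = 0.89). CAPSL lay among the dimmest 25% of features. The values of both neighbours lay nearer to their controls than those of IL7R did. SKP2, the ubiquitin ligase subunit that targets the cell cycle inhibitor p27, had the same value of 8.88 on both miR204 arrays, against 9.46 and 9.50 on the control arrays (log2 difference -0.60, SE 0.139, limma adjusted p = 0.16). PRLR, the prolactin receptor, had a log2 difference of -0.675 (SE 0.139, limma adjusted p = 0.15) and LMBRD2 one of -0.59 (SE 0.199, limma adjusted p = 0.22). The remaining flanking genes BRIX1, DNAJC21, AGXT2, UGT3A1 and UGT3A2 had log2 differences from -0.365 (BRIX1) to 0.08 (AGXT2), with none past the threshold. The median over the 10 genes was -0.1475, and -0.10 after quantile normalization. At an unadjusted p under 0.05, 0 were then higher and 3 (PRLR, LMBRD2 and SKP2) lower, against 6.57% and 7.1% of features on that scale.

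**Figure D4:**
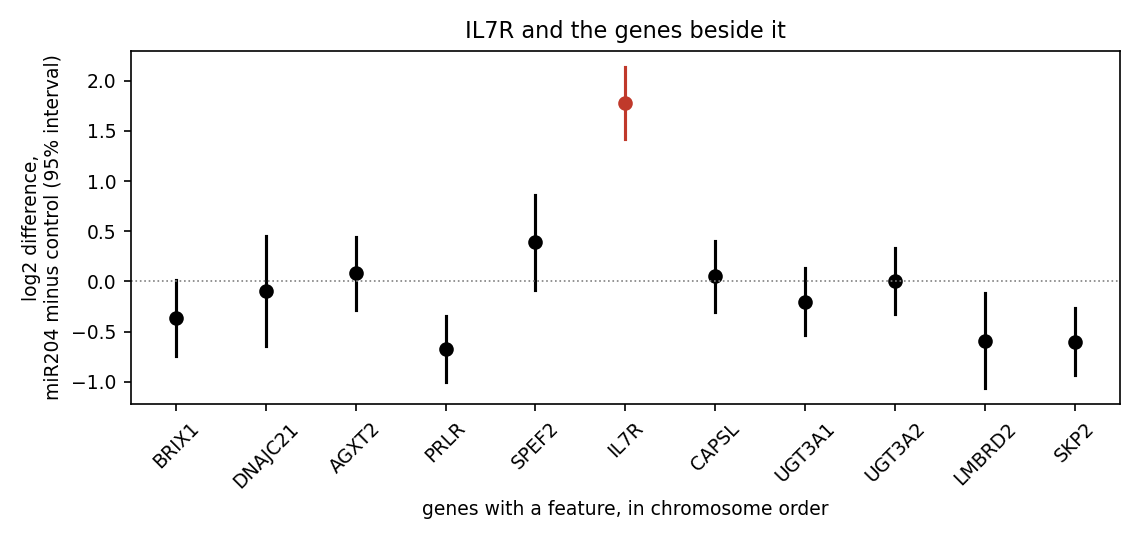
Log2 difference, miR204 minus control, with its 95% interval (vertical axis) for IL7R in red and the 10 measured protein-coding genes beside it in black, in chromosome order (horizontal axis). IL7R stands at 1.78, and the 10 flanking genes lie between -0.675 and 0.39.

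The other genes of the receptor system had small differences. Of 10 measured ligands and receptors of the gamma-chain family outside the 9 members, 0 passed the adjusted threshold, and at an unadjusted p under 0.05, 1 was higher and 0 lower, against 5.11% and 12.8% of all features. The higher gene was IL21R, the interleukin-21 receptor, with 3.68 and 4.12 on the miR204 arrays and 3.25 and 3.01 on the control arrays (log2 difference 0.77, SE 0.194, limma adjusted p = 0.17). Of the 10 genes, 6 lay among the dimmest 25% of features, IL21R included. IL15 had a log2 difference of -0.36 (SE 0.159), IL2 one of 0.265 (SE 0.142), and IL2RB, the chain that joins IL2RG for interleukins 2 and 15, one of 0.20 (SE 0.147). The list median was 0.0975 against -0.07 over all features, and it was -0.115 without miR204 replicate 2. After quantile normalization 1 gene (IL21R) was higher and 1 (IL15) lower at an unadjusted p under 0.05, against 6.57% and 7.1% of features.

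JAK2, the partner of JAK1 at the TSLP receptor, had log2 values of 5.18 and 5.19 on the miR204 arrays and 4.94 and 5.24 on the control arrays. The groups overlapped, with a log2 difference of 0.095 (SE 0.161, limma adjusted p = 0.79). TYK2 differed by 0.13 (SE 0.149), STAT3 by 0.195 (SE 0.187) and STAT6 by -0.085 (SE 0.168). The sign of STAT6 turned to 0.06 after quantile normalization. In this list of 5 measured JAK and STAT genes, groups overlapped for all 5, while they did not overlap for 50.3% of all features. After quantile normalization 2 of the 5 (TYK2 and STAT3) lay above the controls, against 22.7% of features. At an adjusted or an unadjusted p of 0.05, 0 of the 5 passed. The list median was 0.095, or -0.025 without miR204 replicate 2.

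Other cytokine and hormone receptors known to signal through STAT5 had lower values in part. Of 9 measured genes, 0 passed the adjusted threshold, and at an unadjusted p under 0.05, 0 were higher and 2 lower, against 12.8% of all features lower. GHR, the growth hormone receptor, had 5.73 and 5.44 on the miR204 arrays and 6.29 and 6.46 on the control arrays (log2 difference -0.79, SE 0.166, limma adjusted p = 0.15). PRLR, which is also 1 of the genes beside IL7R, had 5.55 and 5.51 on the miR204 arrays and 6.21 and 6.20 on the control arrays. For neither gene did the groups overlap, as was so for 50.3% of all features. LIFR, the leukaemia inhibitory factor receptor, had a log2 difference of -0.445 (SE 0.252), and EPOR, the erythropoietin receptor, one of -0.25 (SE 0.159). Over these receptors the median was -0.23, and -0.11 after quantile normalization. At an unadjusted p under 0.05, 0 were then higher and 2 (GHR and PRLR) lower, against 6.57% and 7.1% of features on that scale.

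Inhibitors of JAK-STAT signalling included the best known feedback targets of STAT5. CISH, a SOCS family protein induced by STAT5, had 3.21 and 3.69 on the miR204 arrays and 3.36 and 3.94 on the control arrays. SOCS2, another STAT5-induced inhibitor, had 6.90 and 7.22 on the miR204 arrays and 6.99 and 7.32 on the control arrays. For both the groups overlapped, with log2 differences of -0.20 for CISH (SE 0.247) and -0.095 for SOCS2 (SE 0.186). The difference of SOCS2 was 0.06 after quantile normalization. CISH lay among the dimmest 25% of features. SOCS1, an inhibitor of JAK kinase activity, had a log2 difference of -0.455 (SE 0.159, limma adjusted p = 0.23), and PTPN2, a phosphatase that acts on JAK1 and JAK3, one of -0.465 (SE 0.164, limma adjusted p = 0.23). PTPN11 (SHP2) differed by -0.285 (SE 0.142), or by -0.07 after quantile normalization, and CBLB, a ubiquitin ligase, by 0.285 (SE 0.145). Of 18 measured inhibitors, 0 passed the adjusted threshold, and at an unadjusted p under 0.05, 0 were higher and 2 lower, against 5.11% and 12.8% of all features. After quantile normalization 1 (CBLB) was higher and 1 lower, against 6.57% and 7.1% of features. Their median was -0.095, but 0.06 after quantile normalization.

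Survival and growth genes reported as STAT5 targets had no member past the adjusted threshold among 13 measured (0 higher and 0 lower). At an unadjusted p under 0.05, 0 were higher and 2 lower, against 5.11% and 12.8% of all features, and after quantile normalization 2 were higher and 0 lower, against 6.57% and 7.1% of features on that scale. The cyclin CCND2 had 9.0 and 9.06 on the miR204 arrays and 9.48 and 9.38 on the control arrays (log2 difference -0.40, SE 0.142, limma adjusted p = 0.23). CCND1 had a log2 difference of -0.345 (SE 0.145, limma adjusted p = 0.28). OSM, the cytokine oncostatin M, differed by 0.275 (SE 0.149) and ID1, an inhibitor of differentiation factors, by 0.25 (SE 0.162). After quantile normalization CCND2 differed by -0.18 and CCND1 by -0.15. The list median was -0.155, and 0.02 after quantile normalization.

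In the PI3K arm of the pathway, through which interleukin-7 receptors also act on growth and on FOXO factors, 0 of 13 measured genes passed the adjusted threshold, and at an unadjusted p under 0.05, 0 were higher and 3 lower, against 5.11% and 12.8% of all features. After quantile normalization 0 were higher and 1 (PDPK1) was lower, against 6.57% and 7.1% of features. PDPK1, the kinase that activates AKT, had 6.12 and 6.22 on the miR204 arrays and 6.61 and 6.85 on the control arrays (log2 difference -0.56, SE 0.155, limma adjusted p = 0.18). The catalytic subunits PIK3CB and PIK3CD had log2 differences of -0.46 (SE 0.167) and -0.395 (SE 0.144), and the kinase AKT2 one of -0.345 (SE 0.161). All 4 of these genes had both miR204 arrays below the controls, as did 33.8% of all features, but AKT2 overlapped after quantile normalization. The PI3K genes had a median of -0.145, and -0.09 after quantile normalization.

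Of 15 measured transcription factors reported to act at IL7R in lymphocytes, 0 passed the adjusted threshold, and at an unadjusted p under 0.05, 1 was higher and 1 lower, against 5.11% and 12.8% of all features. After quantile normalization 1 (GFI1) was higher and 0 lower, against 6.57% and 7.1% of features on that scale. GFI1, a repressor reported to lower IL7R in mouse T cells, had 8.34 and 8.02 on the miR204 arrays and 7.80 and 7.70 on the control arrays (log2 difference 0.43, SE 0.166, limma adjusted p = 0.25). FOXP1, a forkhead factor that opposes FOXO1 at IL7R in mouse T cells, had 8.46 and 8.56 on the miR204 arrays and 8.82 and 8.88 on the control arrays (log2 difference -0.34, SE 0.142, limma adjusted p = 0.28). In both the groups did not overlap, as in 50.3% of all features. IRF2 had a log2 difference of -0.66 (SE 0.309) with miR204 replicates of 4.59 and 5.59, and the NF-kappaB subunit gene NFKB1 one of -0.27 (SE 0.15). The list median was -0.145, and -0.015 after quantile normalization.

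**Figure D5:**
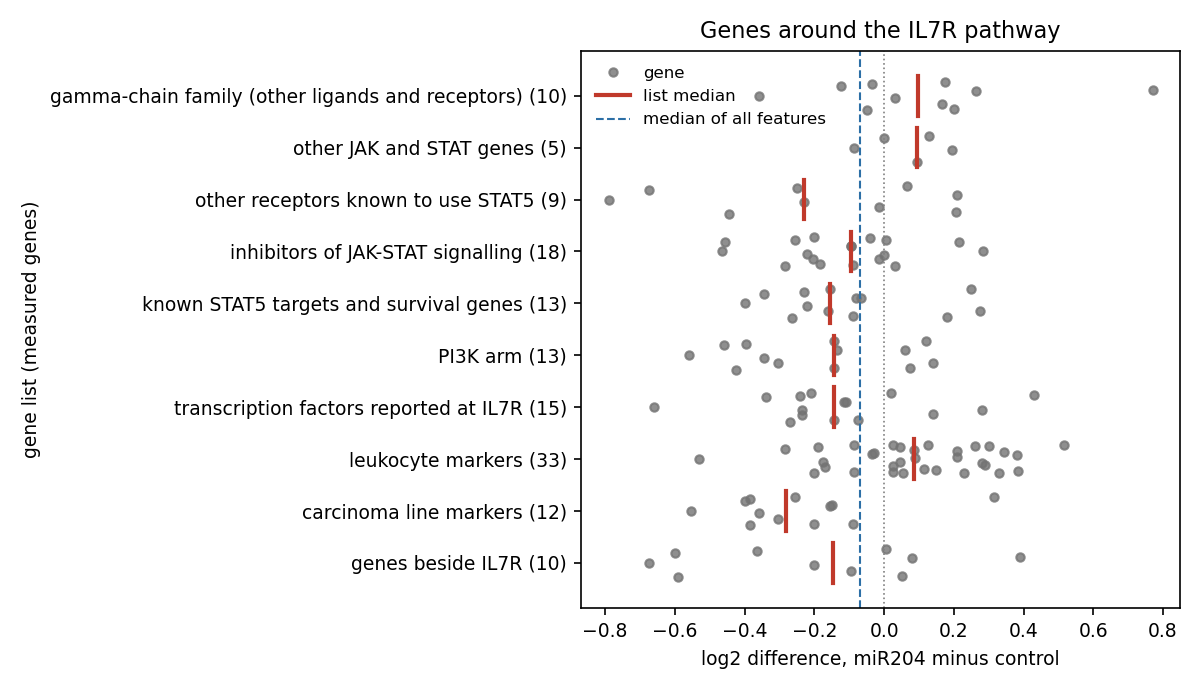
Log2 difference, miR204 minus control (horizontal axis), of each measured gene (grey points) in the 10 gene lists (vertical axis, with the number of measured genes), with the list median in red, the median of all features (-0.07) as a dashed line and 0 as a dotted line. Points are spread vertically for legibility only, and all lie between -0.79 and 0.77, below the IL7R difference of 1.78.

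Since IL7R is a lymphocyte gene, leukocyte markers were set beside it. PTPRC, the surface phosphatase CD45 of all leukocytes, was named after its values were seen. It had 2.87 and 3.03 on the miR204 arrays and 2.90 and 2.77 on the control arrays and lay among the dimmest 25% of features. Of 33 measured leukocyte markers, 15 lay in that range, 0 passed the adjusted threshold, and at an unadjusted p under 0.05, 0 were higher and 1 lower, against 5.11% and 12.8% of all features. The gene lower at that p was ZAP70, a T cell kinase, with a log2 difference of -0.53 (SE 0.147, limma adjusted p = 0.18). Means were higher in the miR204 group for 23 of the 33 and lower for 10, against 40.2% and 59.2% of all features. Differences varied with level, with a median of -0.07 over all features and -0.165 among features above the median of mean level. The shares of all features are not matched to these markers by level. The T cell receptor chains CD3G and CD3E differed by 0.515 (SE 0.218) and 0.33 (SE 0.156). CD3D and CD247, chains of the same receptor named after their values were seen, differed by -0.20 (SE 0.181) and 0.025 (SE 0.151). RAG2, of antigen receptor recombination, differed by 0.345 (SE 0.17). ZAP70, CD3G, CD3D and RAG2 lay among the dimmest 25% of features. The 33 markers had a median of 0.085, which was 0.15 without miR204 replicate 1 and 0.02 without miR204 replicate 2. After quantile normalization it was 0.13, against -0.00375 over all features. At an unadjusted p under 0.05, 1 marker was then higher and 1 lower, against 6.57% and 7.1% of features on that scale. Summed over the list, the log2 values came to 152.8 to 153.4 on the miR204 arrays and 149.9 to 150.9 on the control arrays. A part of these markers in the IL7R difference was not tested.

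Markers of the carcinoma line had lower means in the miR204 group for 11 of 12 genes, as did 59.2% of all features. KRT7, a keratin of glandular epithelia, had 10.30 and 10.34 on the miR204 arrays and 10.69 and 10.75 on the control arrays (log2 difference -0.40, SE 0.14). WT1, a transcription factor of serous ovarian carcinoma, differed by -0.555 (SE 0.15), the mesenchymal cadherin CDH2 by -0.305 (SE 0.143) and MUC16, the antigen CA125, by -0.385 (SE 0.148). Of the 12, 0 passed the adjusted threshold, and at an unadjusted p under 0.05, 0 were higher and 3 lower, against 5.11% and 12.8% of all features. After quantile normalization 0 were higher and 2 lower, against 6.57% and 7.1% of features on that scale. EPCAM, CDH1 and MSLN, surface proteins named here after their values were seen, lay among the dimmest 25% of features. For these markers the median was -0.28, and -0.10 after quantile normalization. Over all features it was -0.07. Among features above the median of mean level, it was -0.255 for these markers and -0.165 for all features. Differences thus varied with level, and the share of all features is not matched to these markers by level.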

How the data were processed

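The 4 Clariom S arrays measured total RNA of HeyA8-MDR cells. Per the submitters' processing notes, the authors made the deposited log2 values by RMA, run in Transcriptome Analysis Console 4.0. No source used here states the settings of that step or a genome build. Symbols came from the platform annotation, and 0 array columns were left out.

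The miR204 group was set against the control group in R 4.3.3 with limma 3.58.1 (lmFit and eBayes, 2 residual and 4.78 prior degrees of freedom, no filter), with Benjamini-Hochberg adjustment over all 21448 features and a threshold of 0.05. Intervals are at the 95% level. An exact permutation of 2 against 2 arrays cannot go below p = 0.333 and was not used. Members and gene lists were chosen with earlier results of these data known. In each list, the up to 4 genes with the largest moderated statistic were named, besides JAK2, CISH and SOCS2, all genes beside IL7R and the 5 nearest patterns. PTPRC, CD3D, CD247, EPCAM, CDH1 and MSLN were named outside this rule. In data simulated for this comparison on 21448 features, 0% of 2-fold and 97.9% of 4-fold changes were recovered. Alternatives were other priors, scalings and filters, a replicate block, no moderation and leaving out each array.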

Additional observations from a re-analysis of the deposited data

How the results depend on the processing

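IL7R was chosen by this difference, so its values and calls in other fits of the same 4 arrays are a description, not support. It stayed higher in the miR204 group under every alternative run, with log2 differences of 1.91 after quantile normalization and 1.92 after cyclic loess. With 1 array left out, IL7R differed by 1.685 to 1.875. It passed the adjusted threshold in 7 of 14 alternatives, and not with the replicate block (adjusted p = 0.32), after quantile normalization (0.058), without moderation (0.31) or without any 1 array (0.14 to 0.83); the range was 4.9e-05 to 0.83. Over all features, limma as reported called 11 higher and 0 lower. The counts were 219 and 1306 with an intensity trend, 304 and 255 with quantile normalization and trend, 28 and 10 above the 25th percentile of level, 144 and 867 above the median level, 2 and 2 without moderation (all 4 had identical values within both groups), and 0 and 0 after quantile normalization, with the replicate block and without any 1 array (range 0 to 0). Same-numbered arrays did not deviate together (correlation 0.00579), so the numbers were not taken as pairs.

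In the gene lists, 0 members passed in the fit as reported. With the trend, 2 of 9 STAT5-using receptors and 2 of 13 STAT5 targets passed as lower. So did 1 of 12 carcinoma markers and 2 of 10 genes beside IL7R, against 1306 of 21448 features. PRLR is in both the receptor list and the list of genes beside IL7R. Above the median level 2 receptors, 1 PI3K gene, 1 carcinoma marker and 2 genes beside IL7R passed as lower, against 867 of 10739 features. With quantile normalization and trend, 1 of 15 transcription factors passed as higher and 1 of 10 genes beside IL7R as lower. Over all 21448 features, 304 were then higher and 255 lower. Nothing is read from these counts.

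List medians after quantile normalization and after cyclic loess were -0.109 and -0.101 for STAT5-using receptors, 0.064 and 0.069 for inhibitors, 0.019 and 0.023 for STAT5 targets, -0.089 and -0.078 for PI3K genes, -0.015 and -0.0034 for transcription factors and -0.1025 and -0.096 for carcinoma markers. With equal array medians they were -0.03 for inhibitors, -0.08 for PI3K genes, -0.08 for transcription factors and -0.215 for carcinoma markers. Over features above the 25th percentile the PI3K median was -0.225, against -0.12 for all features of that range. Above the median level it was -0.305, against -0.165 for all features of that range. Only the list members above that level enter these medians. The receptor median was there -0.4625, from PRLR, GHR, EPOR and OSMR only. For genes beside IL7R it was -0.4825, from PRLR, SKP2, BRIX1 and DNAJC21 only. Leaving out 1 array gave -0.025 to 0.19 for JAK and STAT genes, -0.165 to -0.135 for receptors, -0.205 to -0.16 for PI3K genes, -0.16 to -0.0625 for inhibitors, -0.32 to -0.1575 for carcinoma markers and -0.2875 to -0.09 for genes beside IL7R. The cause of these shifts was not tested. With 2 arrays per group and no analysis of signal over background, small differences of dim genes such as IL7, TSLP and IL2RG could not be resolved.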
